A study of Mus musculus with 12 samples.

Results

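The 116 array probes described here read far higher in lung RNA of prenatal offspring from smoke-exposed gestations than in that of offspring from gestations in filtered air. They are 116 of the 41174 probes on the array that are not controls. A probe was a member when it met 3 conditions on the offspring arrays. All 3 smoke values exceeded 5% of their array's 75th percentile of intensity, every smoke value lay above every air value, and the mean log2 difference, smoke minus air, was 1.5 or higher. The members were thus chosen by the offspring values themselves, and those values are given below as a description that supports nothing. Only the dam arrays were outside the choice, and smoke against air in dams is the only test from which anything is read.

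The series comprised 4 groups of 3 arrays, labelled as biological replicates and all of lung tissue from female mice of a strain written B6C6F1. Offspring smoke and Offspring air are prenatal mice from dams that breathed cigarette smoke or filtered air, and Dams smoke and Dams air are the mature pregnant mice themselves. Smoke came from 3R4F cigarettes, a filtered research cigarette of fixed specification, and was mixed with filtered air at a ratio of 1 to 50. Dams were in the chambers for 4 h a day on 5 days a week over the 18 days up to parturition, so the offspring were exposed only through the dam. Whether offspring shared a litter or a dam is not stated, nor is the dam of any offspring array, and p-values therefore cover only the variation from array to array.

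Tobacco smoke carries nicotine, carbon monoxide, oxidants and polycyclic aromatic hydrocarbons. In the adult lung it is known to induce cytochrome P450 genes through the aryl hydrocarbon receptor and antioxidant genes through Nrf2, and smoking in pregnancy is a known risk for impaired lung growth of the child. An array probe reports how much labelled RNA binds 1 short sequence, so several probes may read the same gene. The gene table at hand lists 0 of the probe identifiers. No member is therefore tied to a gene, a genome position or a pathway, no cell type marker or lung marker could be looked up, and no probe sequence is shown. Members are described by identifier, level and pattern over the arrays.

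All levels below are intensities in percent of the array's 75th percentile, so that 100% stands for that percentile. A floor at 1.16%, set from the control probes, was applied before log2 values were taken. The 75th percentile itself was 917, 491 and 549 intensity units in Offspring smoke replicates 1 to 3, while the remaining 9 arrays had 839 to 1164. Spike-in control signal, divided by the 75th percentile, was 3.42, 4.22 and 3.59 on the Offspring smoke arrays, against 2.30, 3.23 and 1.6 on the Offspring air arrays. It was 1.52, 1.77 and 2.76 in Dams smoke and 1.59, 1.65 and 1.86 in Dams air. The labels give Cy5 for the lung RNA and Cy3 for a reference RNA, and no source used here says which of these channels the deposited values hold. In bulk tissue, fewer cells of a type and less RNA per cell cannot be told apart.

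The members had no common level. Their mean level in Offspring smoke ran from 6.12% to 20820%, with a median of 37.9%, against 41.3% for all tested probes. In Offspring air the same probes ran from 1.04% to 8387%, with a median of 10.9%, against 43.5% for all tested probes. Their log2 difference in offspring, smoke minus air, ran from 1.51 to 4.14 with a median of 1.86. It was over 2 for 39 members and over 3 for 5 of them. The median of all 28200 probes tested was 0.05. Of the probes tested, 31% had every Offspring smoke value above every Offspring air value, and 28.1% were called higher in Offspring smoke by limma at an adjusted p under 0.05. Of all probes called in offspring, 52.8% were higher in Offspring smoke as reported, 1.75% without scaling between arrays and 1.02% with spike-in scaling, so the direction of the background turned with the scaling. By the same fit 110 of the 116 members were called, and nothing is read from this count because the rule used the contrast. The condition on separation left out 8 probes that met the others, and the condition on brightness left out 12.

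The smoke-exposed offspring arrays were alike at these probes, and the air arrays were not. The median member level was 35.1%, 38.1% and 37.5% in Offspring smoke replicates 1, 2 and 3, against 8.15%, 13.8% and 8.51% in Offspring air. On the dam arrays it was 17.9%, 16.4% and 23.3% in Dams smoke and 20.7%, 18.6% and 19.8% in Dams air, so that all dam arrays lay between the offspring groups. The median SD of a member was 0.12 log2 units in Offspring smoke, the same as for all tested probes (0.12). In Offspring air it was 0.72, against 0.20 for all tested probes. The air values of a member spanned more than 1 log2 unit at 91 of 116 members (78.4%, against 8.86% of all tested probes). They spanned more than 2 at 25 (21.6%, against 0.957%). The Offspring smoke values spanned more than 1 log2 unit at 3 members (2.59%, against 3.06%). The rule sets a minimum for every smoke value, while a very low air value raises the mean difference, so the rule bears on this contrast in spread.

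Offspring air replicate 2 was the air array nearest to the smoke arrays. It was the highest air array at 89 members (76.7%, against 36.3% of all tested probes), Offspring air 1 at 17 and Offspring air 3 at 10. The lowest air array was Offspring air 1 at 62 members (53.4%, against 39.7% of all tested probes). It was Offspring air 3 at 49 (42.2%, against 27.0%) and Offspring air 2 at 5 (4.31%, against 33.3%). Offspring air 2 also had the highest spike-in ratio of the air arrays, 3.23, and the part of the spike-in ratio in the members' levels was not tested. Without Offspring air 1 the rule held for 80 of the 116, without Offspring air 2 for 109 and without Offspring air 3 for 93. Without Offspring smoke 1, 2 or 3 it held for 114, 106 and 112.

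The member with the widest separation was A_51_P281568, singled out after its values were seen. It read 28.4%, 29.5% and 28.6% in Offspring smoke, against 0.860%, 4.09% and 3.49% in Offspring air. Dams smoke arrays read 4.06%, 1.64% and 4.32%, and Dams air arrays 2.81%, 4.99% and 2.62%. All 9 other arrays were thus low and overlapped one another, and the 3 Offspring smoke arrays stood alone above them. Its log2 difference in offspring was 3.50 and stayed between 2.93 and 3.84 with any 1 air array left out. Offspring air 1 was below the floor, so the difference on the floored scale is an underestimate.

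The 2 members with the largest differences had another shape, in which Offspring air 1 and 3 stood far below the other 10 arrays. Probe A_52_P570717 read 252%, 333% and 267% in Offspring smoke, against 11.7%, 121% and 2.89% in Offspring air. In dams it read 156%, 155% and 255% with smoke and 164%, 166% and 151% with air, so every dam array lay above every Offspring air array. The log2 difference in offspring was 4.14, and it was 2.90 without Offspring air 3 and 5.59 without Offspring air 2. Probe A_52_P152133 had 456%, 554% and 454% in Offspring smoke, against 23.1%, 209% and 6.47% in Offspring air. Its dam values were again high, 362%, 336% and 604% in Dams smoke and 336%, 338% and 297% in Dams air.

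At some members the lowest air array stood well below the other air arrays. Offspring air 1 lay more than 1 log2 unit below both other air arrays at 25 members (21.6%, against 2.24% of all tested probes). Offspring air 3 did so at 10 (8.62%, against 0.245%). Members already described are among both, and at A_52_P570717 and A_52_P152133 Offspring air 1 was low beside Offspring air 3. Probe A_51_P239177, chosen as an example after its values were seen, read 71.8%, 75.5% and 67.6% in Offspring smoke, against 4.15%, 26.4% and 24.2% in Offspring air. Dams smoke read 24.6%, 18.9% and 27.6% and Dams air 19.9%, 18.7% and 25.7%, at the level of Offspring air 2 and 3. The log2 difference in offspring was 2.37 with all arrays and 1.5 without Offspring air 1. At 7 members (6.03%, against 0.805% of all tested probes) Offspring air 1 was instead more than 1 log2 unit above both other air arrays. One of them, also chosen as an example afterwards, was A_51_P470989, with 128%, 133% and 136% in Offspring smoke, against 99.0%, 24.5% and 22.8% in Offspring air, where the dams read from 89.1% to 117%. At the 25 members whose air values spanned less than 1 log2 unit, the log2 difference in offspring ran from 1.51 to 2.71.

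At 4 members 2 Offspring air arrays were at or below the floor, at 9 members 1 was, and at no member (0) were all 3, so no member rests on a bound alone. All 116 members were above the floor on at least 3 of the 9 arrays outside Offspring smoke, and none entered the tests only through the group in which it is high. On all 12 arrays 102 members were above the floor.

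Near the limit of 1.5 the choice of members was narrow. Just inside it, A_51_P509643 had a log2 difference of 1.51, with 201%, 188% and 187% in Offspring smoke, against 42.0%, 115% and 63.3% in Offspring air. A_51_P476767, also at 1.51, had 305%, 343% and 301% in Offspring smoke, against 270%, 80.5% and 62.4% in Offspring air, where Offspring air 1 almost reached the smoke arrays. Just outside, A_52_P673152 and A_51_P521010 both rounded to 1.5 from below. The first read 48.4%, 72.6% and 52.7% in Offspring smoke, against 18.7%, 15.4% and 28.3% in Offspring air. Between 1.4 and the limit lay 35 probes that met the other conditions, and between the limit and 1.6 lay 18 members.

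Slide 1 is the only slide with both offspring groups and holds Offspring smoke 1 and Offspring air 1. On it the members' log2 difference had a median of 2.28 and was at least 1.5 at 93. It was above 0 at 116, which the rule requires. Between Offspring smoke 2 and 3, both on slide 2, and Offspring air 2 and 3, both on slide 3, the median was 1.73. Slide and group cannot be told apart there. These are the arrays that chose the members, so the values describe the choice and do not test it. The members' offspring median was 1.86 as reported, 1.26 without scaling between arrays and 1.15 with spike-in scaling. These 2 settings moved the median of all tested probes to -0.49 and -0.58 from 0.05. Under each of them the offspring groups stayed apart at 89 of the members. The share of all tested probes that did so under these settings was not taken, so nothing is read from the 89. The lowest member difference was then 0.91 and 0.80, so the smoke mean was above the air mean at 116. That count follows from the limit of 1.5, because apart from the floor such a change of scaling moves every probe by the same amount, here less than the limit.

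In the dams, which the rule did not use, the group means of most members lay within the range of Offspring air or between the offspring groups. The Dams air mean lay within the range of the Offspring air arrays at 65 members (56.0%, against 25.7% of all tested probes) and between the offspring groups at 44 (37.9%, against 6.12%). The offspring groups are apart at all members and at 31% of tested probes, which bears on these shares. It lay within the Offspring smoke range at 2, above it at 5 and below Offspring air at 0. The Dams smoke mean lay within the Offspring air range at 50 members (43.1%, against 25.1% of all tested probes), between the offspring groups at 60 (51.7%, against 8.29%), within Offspring smoke at 3, above it at 2 and below Offspring air at 1. All 6 dam values lay below every Offspring smoke value at 83 members (71.6%, against 29.1% of all tested probes), and between the offspring groups at 8 (6.90%, against 0.688%). Dams air was nearer on the log2 scale to the Offspring air mean than to the Offspring smoke mean at 86 members (74.1%, against 75.7% of all tested probes), and Dams smoke at 74 (63.8%, against 71.8%), so the members did not stand above all tested probes in this. The comparisons of offspring with dams share the offspring arrays of the rule and were not tested.

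By their medians the members lay above the dams in Offspring smoke and below them in Offspring air, and the rule selects for both. Offspring smoke minus Dams smoke had a median log2 difference of 1.11 over the members, against 0.06 over all tested probes. Offspring air minus Dams air had a median of -0.55, against 0.02 over all tested probes. An exception in level was A_51_P311235, named after its values were seen. It read 8.51%, 9.27% and 6.57% in Offspring smoke, against 3.10%, 4.27% and 0.312% in Offspring air, and far more in dams, 92.8%, 46.7% and 147% in Dams smoke against 31.6%, 43.4% and 22.6% in Dams air.

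Whether smoke also moved these probes in the dams was tested by limma over all 28200 probes. No member was called (0 of 116), and of all tested probes 0% were called, with 1166 at an unadjusted p under 0.05. The smallest adjusted p of a member was 0.507 in limma. At an unadjusted p under 0.05 limma had 6 members higher and 3 lower in Dams smoke, where 2.27% of all tested probes were higher and 1.86% lower. Dam values did not overlap and were higher in Dams smoke at 17 members (14.7%, against 6.05% of all tested probes), and lower at 4 (3.45%, against 5.3%). The median standard error of a member's log2 difference in dams was 0.36, against 0.15 for all tested probes. The fit takes 1 spread from all 4 groups, so this error includes the Offspring air arrays of the rule, where the members' median SD was 0.72, beside 0.38 in Dams smoke and 0.22 in Dams air. A fit of the dam arrays alone also called 0 members and 0 probes.

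The members' median dam difference was above 0, and most of it was lost without Dams smoke 3. Their median log2 difference in dams, smoke minus air, was 0.19, against -0.01 for all tested probes, and 88 of 116 were above 0 (75.9%, against 47.5%). Without Dams smoke 3 the median was 0.03 and 65 of 116 were above 0 (56.0%, against 46.7%). Dam values that did not overlap were then higher in Dams smoke at 18 members (15.5%, against 9.25%) and lower at 6 (5.17%, against 9.51%). With all dam arrays the higher count was 17 (14.7%, against 6.05%). Fewer arrays overlap less readily, so these counts are read only beside their shares over all tested probes. On slide 3, which holds Dams smoke 3 and Dams air 3, the members' median was 0.42. Between Dams smoke 1 and 2, both on slide 1, and Dams air 1 and 2, both on slide 2, it was 0.04. Slide and group cannot be told apart in that second comparison, so the 2 medians are not like estimates of smoke. Dams smoke 3 had the highest spike-in ratio of the dam arrays, 2.76, and was the highest of the 6 dam arrays at 66 members (56.9%, against 28.5% of all tested probes). The part of the spike-in ratio in this was not tested. With spike-in scaling the members' median in dams was -0.01 and that of all tested probes -0.20.

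Members differed in how the dam arrays were ordered, and a few shapes recurred. These groups were formed after the values were seen and have no test. At 9 members Dams smoke 3 alone read more than 1 log2 unit above the other 5 dam arrays, as at 80 of all 28200 tested probes. It was 2.78 to 3.61 times the mean of the others there, and Offspring air 2 was the highest air array at 8 of the 9. Probe A_52_P450277, an example, read 284%, 277% and 275% in Offspring smoke, against 41.4%, 118% and 92.6% in Offspring air. Dams smoke read 109%, 84.1% and 314%, against 92.6%, 121% and 73.8% in Dams air, so Dams smoke 3 stood at the level of smoke-exposed offspring and Dams smoke 1 and 2 among the Dams air arrays. Probe A_52_P450276, the next lower identifier number, also had Dams smoke 3 alone above the other dam arrays, with 21.0%, 16.1% and 54.7% in Dams smoke and 20.2%, 26.1% and 16.5% in Dams air. Such pairs of consecutive identifiers occurred 3 times among the members, and whether the probes of a pair read the same gene is not known here.

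The brightest members formed another shape. All 4 members above 5000% in Offspring smoke read 6.0 to 8.80 times higher in Dams smoke 1 than in Dams smoke 2, and each was highest in Offspring air 2 and lowest in Offspring air 1 among the air arrays. Probe A_52_P213909, the brightest of them, read 16556%, 24107% and 21797% in Offspring smoke, against 2568%, 16092% and 6502% in Offspring air. In Dams smoke it read 18953%, 2344% and 9415%, against 7884%, 3133% and 10882% in Dams air. Offspring air 2 thus nearly reached Offspring smoke 1.

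The members with the smallest p in dams went against the offspring. Probe A_52_P55972 read 3.86%, 12% and 6.34% in Dams smoke, against 34.3%, 18.5% and 44.8% in Dams air, without overlap. Its log2 difference in dams was -2.20 (standard error 0.47). The limma adjusted p was 0.507, and 0.476 in a fit of the dam arrays alone. With any 1 array left out it was 0.134 or higher, lowest without Offspring air 1. In offspring it read 24.6%, 30.8% and 22.5% with smoke and 14.5%, 5.53% and 5.67% with air. Probe A_51_P233597 had 3.65%, 9.20% and 4.84% in Dams smoke against 27.7%, 14.4% and 36.7% in Dams air. This is -2.16 on the log2 scale (standard error 0.46, limma adjusted p 0.507). The adjusted p was 0.460 from the dam arrays alone, and 0.105 or higher with any 1 array left out, again lowest without Offspring air 1. Probe A_51_P271984 had the same order of the dam arrays and had a log2 difference of -2.18 in dams. These 3 were the members with a dam difference below -1, and Offspring air 1 was the highest air array at each. Without Dams smoke 3 the differences were -2.16, -2.08 and -1.99.

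At 5 members, among them A_52_P570717, A_52_P152133 and A_51_P281568, the 12 sorted values held a gap of more than 2 log2 units with at least 2 arrays on each side, as at 24 of all tested probes. Probe A_51_P326826 of these 5 read well above its own lowest values on at least 1 array of every group. It read 18.3%, 21.0% and 17.8% in Offspring smoke, against 0.908%, 9.57% and 0.958% in Offspring air. It read 1.04%, 0.903% and 12.8% in Dams smoke and 1.74%, 23.8% and 2.29% in Dams air. Its high arrays outside Offspring smoke were thus Offspring air 2, Dams smoke 3 and Dams air 2.

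By level in Dams air, members were found in every part of the range, with more of them among the dimmer probes. In 4 equal bins of tested probes, from dim to bright, there were 37, 37, 23 and 19 members. These are 31.9%, 31.9%, 19.8% and 16.4% of them, against 25% of tested probes in each bin. Both identifier series were present, with 62 members starting A_51 (53.4%, against 49.6% of tested probes).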

How the data were processed

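The deposited table holds intensity values of 41267 probes on 12 Agilent arrays, 93 of them controls, with 0 missing values. Per the labels' protocols 500 ng of lung RNA was labelled with Cy5 and a universal mouse reference with Cy3, and the scan names carry a 1-colour code. The channel, the background treatment and any normalization by the authors are not given in the sources used here. Their values are linear and their 75th percentiles differ, so each array was divided by its 75th percentile over the 41174 other probes, floored at 1.16% and converted to log2. The floor is taken from 50 no-target control probes, as their 95th percentile on the array where that was highest. Probes above it on at least 3 arrays were tested (28200), by limma 3.58.1 in R 4.3.3 with 1 mean per group over all 12 arrays (8 residual degrees of freedom), two-sided, with Benjamini-Hochberg adjustment over all of them. A probe is called at an adjusted p under 0.05. The number of arrays limits the precision. The fit was tested on simulated data with 200 changed probes and, per probe, the same normal spread in all 4 groups. For dams it called 74% of changes of 1 log2 unit and 93% of changes of 2, with 8 false calls. For offspring these were 67%, 97% and 12. The members' spread differed between groups, so these shares do not give the power at the members. The spike-in signal is the geometric mean of 6 E1A control probes. Descriptions used Python 3.11.15, numpy 2.4.6 and pandas 2.3.3.

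The members, lists and rules were chosen with earlier results of these data known. The planned gene lists and cell type markers could not be used because no table pairs these probes with genes. Without gene names, the rule named by identifier the 2 members with the largest offspring difference, the 2 with the smallest p in dams and the 2 on each side of the limit. Other members are marked as chosen after their values were seen. The slide of each array was read from its scan name. Alternatives were other scalings, floors and filters, replicate and slide blocks, fits to 2 groups, a trended robust spread, array weights and each array left out.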

Additional observations from a re-analysis of the deposited data

Results flagged for a closer look

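At 4 members smoke and air differed in opposite directions in offspring and dams on every array, with the members chosen for the offspring direction; whether the 2 differences differ was not tested. The log2 differences in dams were -2.20 at A_52_P55972, -2.16 at A_51_P233597, -2.18 at A_51_P271984 and -0.23 at A_51_P114941. The last had an unadjusted p of 0.494 in limma. These 4 are 3.45% of the members, below the 5.3% of all tested probes that did not overlap and were lower in Dams smoke. A signal outside the probes compared, the spike-in controls over the 75th percentile, had a log2 difference of 0.71 between the offspring groups, smoke minus air.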

How the results depend on the processing

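The number of members depended on the scaling. The rule held for 177 probes when arrays were centred on the median, for 22 when they were not scaled and for 16 under spike-in scaling, in place of 116. The first set contains all 116 members, and the other two lie within them. Members that stayed 1.5 or more apart without overlap numbered 23 without scaling and 19 with spike-in scaling. With any 1 offspring array left out the rule held for 110 to 195 probes, with 195 without Offspring air 2, and 80 to 114 of the members stayed. In dams 0 members were called in limma with any 1 array left out, 2 without scaling and 9 with array weights, whose estimation stopped before it converged. Over all probes 12 were called in dams without scaling, 3 with spike-in scaling, 1014 with array weights and 0 to 7 with any 1 array left out, with 7 without Dams smoke 2, 2 without Dams smoke 3 and 1 without Offspring air 2. The members' median log2 difference in dams was -0.014 with spike-in scaling, 0.43 with slide as a fixed block, and 0.03 to 0.31 with any 1 array left out, lowest without Dams smoke 3 and highest without Dams smoke 2. Of 25 settings, A_51_P233597 and A_52_P55972 were called in dams in 2 each, without scaling and with array weights. A_51_P271984 was called in 1, with array weights. The reported setting is among the 25 and called none of them. Their adjusted p ran from 0.00845, 0.0122 and 0.0145 to 1 in limma. Probes called in offspring numbered 9697 with spike-in scaling and 12482 to 15228 with any 1 array left out, in place of 14991. The share higher in Offspring smoke was 52.8% as reported, 63.3% under median centring, 62.7% without the floor and filter, 1.75% with no scaling and 1.02% under spike-in scaling. Of 18 same-numbered pairs of arrays, 2 correlated above 0.1 in their deviations from group means. The correlations ran from -0.33 to 0.22, which does not settle whether the replicate numbers pair the arrays. With a replicate block 0 probes were called in dams and 14088 in offspring. The cause of these changes was not tested. Probes near the floor have only a bound.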
